A study of Mus musculus with 6 samples.

Results

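The 10 genes described here were Cd3d, Cd3e, Cd3g, Nkg7, Klrb1c, Gzma, Gzmb, Prf1, Il2rb and Ifng, a named list of T and NK cell genes together with the gene of interferon-gamma (IFN-γ), taken from 24965 genes in the expression table. They were compared between 3 libraries of donor cells from WT mice and 3 from Hemgn-/- mice, collected 6 h after bone marrow transplantation (BMT). Hemgn encodes hemogen, a nuclear protein of hematopoietic cells, and the study asked how its loss affected transplanted hematopoietic stem and progenitor cells (HSPCs). The Hemgn-/- mice were whole-body mutants made with zinc finger nucleases on a C57BL/6 background, so donor cells of every type carried the mutation. Donors of both genotypes carried CD45.2, were 8 to 10 weeks old per the study's methods, and gave 20000000 bone marrow cells per transplant. Recipients carried CD45.1 and had received a split dose of 9 Gy (4.5 Gy in each fraction), in both groups alike. The labels describe the sorted cells as CD45.2+ Lin- Sca-1+, while the series' design text adds c-Kit, and the 2 sources also differ on the injection route and the library kit. The study's methods describe 3 biological replicates, but whether recipients were pooled for a library is not given in the sources used here. The p-values set the group difference against the variation between libraries of a group, partly pooled over genes. That variation need not be the variation between single mice.

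Cd3d, Cd3e and Cd3g encode the CD3 chains, which join the antigen-binding chains of the T cell receptor at the cell surface and carry its signal inward. Cytotoxic T cells and NK cells store perforin (Prf1) and granzymes (Gzma, Gzmb) in granules and release them onto target cells. Klrb1c encodes the NK1.1 receptor by which NK cells are recognised in C57BL/6 mice, and Nkg7 encodes a membrane protein of cytotoxic granules. Il2rb encodes the signalling chain shared by the receptors for IL-2 and IL-15, on which NK cells depend. T and NK cells are the main producers of IFN-γ, which acts through a receptor of 2 chains and JAK kinases, and which is known to activate or exhaust HSPCs. A lineage-negative sort is meant to remove mature T cells and, where its antibodies cover them, NK cells.

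The libraries held 23668015 to 28897360 fragments, recovered from the steps of the FPKM values, which are fragments per kilobase of exons scaled to the library's total. Hemgn was lower in all 3 Hemgn-/- libraries, at 5.64, 2.96 and 4.68 FPKM in WT replicates 1 to 3 and 0.755, 0.913 and 1.60 FPKM in Hemgn-/- replicates 1 to 3 (limma, adjusted p = 0.0114). Trac, a T cell receptor gene, and Ms4a1, a B cell gene, stood above the HSPC markers Kit and Ly6a in every library. Among other T cell genes, Cd3d, Lck, Cd2 and Trbc2 also stood above Kit in every library, while Cd3e, Cd3g and Cd4 stood below it. How far Trac reflects mature T cells was not tested. Kit ranged from 5.50 to 7.24 FPKM and Ly6a, the gene of Sca-1, from 8.27 to 17.3 FPKM over the 6 libraries. Trac, the constant region of the T cell receptor alpha chain, ranged from 76.5 to 89.2 FPKM, and Ms4a1, a B cell surface marker, from 52.4 to 88.7 FPKM. In bulk libraries such as these, more or fewer cells of a type and more or less RNA per cell cannot be told apart.

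The promoters of 6 members are shown because the text turns on them. The 3 CD3 genes are neighbours on chromosome 9 and differed in how far they moved, Gzma and Prf1 were the other members called, and Ifng is the cytokine gene. Each sequence holds the 250 bases before the start of the gene in RefSeq GRCm38.p6, 5′ to 3′ on the gene's own strand. 9 of the 10 members matched an entry of the promoter table. Capitals mark matches to 4 motifs, searched on both strands. The RUNX motif was TGTGGT or ACCACA, the gamma-activated site (GAS) was TTCNNNGAA, the interferon-stimulated response element (ISRE) was GAAANNGAAA or TTTCNNTTTC, and the T-box motif was AGGTGT or ACACCT. No match overlapped another in these 6 sequences.
Cd3d, chr9:44981536-44981785, plus strand: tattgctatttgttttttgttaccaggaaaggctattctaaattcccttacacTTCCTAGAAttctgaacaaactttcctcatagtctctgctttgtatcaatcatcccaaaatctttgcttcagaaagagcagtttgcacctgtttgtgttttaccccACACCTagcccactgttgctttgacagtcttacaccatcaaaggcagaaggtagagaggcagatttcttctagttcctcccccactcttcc
Cd3g, chr9:44980432-44980681, minus strand: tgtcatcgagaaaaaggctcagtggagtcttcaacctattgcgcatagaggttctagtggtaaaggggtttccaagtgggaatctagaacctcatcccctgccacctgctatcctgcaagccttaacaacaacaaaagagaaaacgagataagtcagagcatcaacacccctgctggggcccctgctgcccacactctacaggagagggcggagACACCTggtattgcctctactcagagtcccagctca
Cd3e, chr9:45009612-45009861, minus strand: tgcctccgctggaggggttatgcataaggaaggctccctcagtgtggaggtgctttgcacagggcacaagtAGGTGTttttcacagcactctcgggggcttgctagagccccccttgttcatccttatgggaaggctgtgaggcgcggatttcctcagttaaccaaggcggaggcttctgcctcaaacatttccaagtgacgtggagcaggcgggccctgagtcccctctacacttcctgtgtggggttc
Gzma, chr13:113100982-113101231, minus strand: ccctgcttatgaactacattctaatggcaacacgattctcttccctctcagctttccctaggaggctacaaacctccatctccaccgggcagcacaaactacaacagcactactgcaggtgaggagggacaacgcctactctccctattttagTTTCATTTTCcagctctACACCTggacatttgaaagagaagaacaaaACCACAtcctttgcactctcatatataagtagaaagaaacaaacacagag
Prf1, chr10:61297586-61297835, plus strand: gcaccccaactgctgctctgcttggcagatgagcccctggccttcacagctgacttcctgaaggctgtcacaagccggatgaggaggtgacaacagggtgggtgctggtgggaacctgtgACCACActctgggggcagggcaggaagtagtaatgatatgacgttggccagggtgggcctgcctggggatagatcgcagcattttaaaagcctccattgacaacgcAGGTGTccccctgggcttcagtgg
Ifng, chr10:118440796-118441045, plus strand: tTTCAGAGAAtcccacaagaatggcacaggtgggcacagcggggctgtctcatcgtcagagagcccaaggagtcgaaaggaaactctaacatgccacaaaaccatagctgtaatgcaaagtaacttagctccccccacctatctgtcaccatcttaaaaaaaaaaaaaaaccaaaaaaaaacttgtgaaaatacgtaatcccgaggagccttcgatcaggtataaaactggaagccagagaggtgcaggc

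The T-box motif was present once in the Cd3d, Cd3g, Cd3e, Gzma and Prf1 promoters and had no match in the Ifng window. It was present in 11.8% of the 32851 promoters of the table. The GAS motif was present once in the Cd3d and Ifng promoters (7.02% of all promoters), the ISRE once in the Gzma promoter (2.98%), and the RUNX motif once each in the Gzma and Prf1 promoters (14.0%). Of the 3 members with a promoter entry not shown, Nkg7 held 1 RUNX, 1 GAS and 1 T-box match, Klrb1c held 1 RUNX match and Gzmb held 2 RUNX matches. Such matches are letters in a window and are not measured binding sites.

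All 10 members passed the filter of FPKM above 1 in at least 1 library. Cd3d, Gzma and Prf1 were higher in Hemgn-/- cells (limma on log2(FPKM + 1), adjusted p under 0.05 over 13739 genes), none was lower, and 7 were not called. Over all genes tested, 4.37% were called higher and 2.09% lower, 600 and 287 genes, and 6.46% in both directions. The direction of calls over all genes depended on the scaling between libraries, since median-ratio scaling gave 341 higher and 386 lower. The median log2 fold change of the 10 members was 0.37, beside 0.087 over all genes tested, and 9 of the 10 were positive. At a p under 0.05 without adjustment 6 members were higher and none lower. The share of all genes at that p alone, or with a positive change, was not computed. The unadjusted and positive counts of the members and of the lists below therefore have no such share beside them. Voom on the recovered fragments called 3 members higher and none lower, Cd3d, Prf1 and Il2rb, with Gzma at an adjusted p of 0.0537. For Il2rb the recovered fragments did not come out as whole numbers. Over all 13723 genes it tested, voom called 734 higher and 331 lower. For 7 members every Hemgn-/- library lay above every WT library, which was so for 19.2% of all genes (8.18% lay lower without overlap), and for Cd3e, Nkg7 and Gzmb the groups overlapped. At the study's own thresholds (a p under 0.05 before adjustment, with a 1.5-fold change), Cd3d and Prf1 passed as higher and no member as lower, beside 4.1% and 2.74% of all genes. The summed level of the 10 members was 195, 205 and 203 FPKM in WT replicates and 227, 276 and 264 FPKM in Hemgn-/- replicates.

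**Figure D1:**
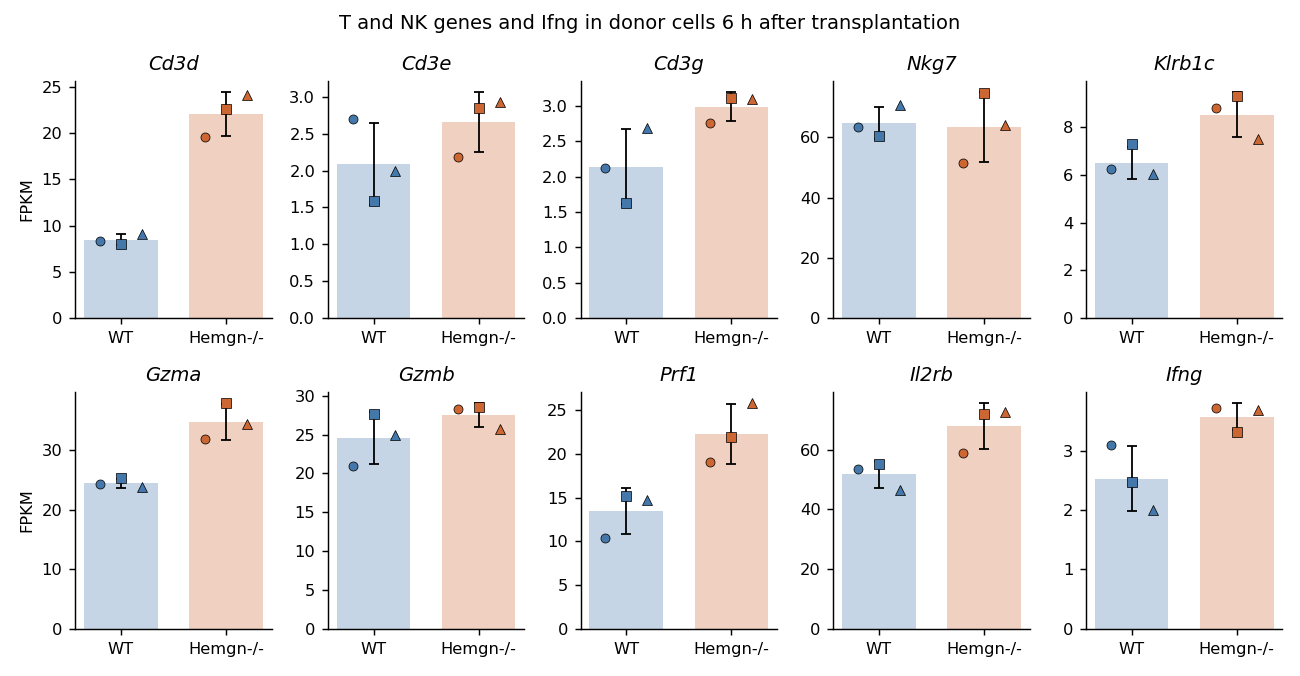
FPKM of each of the 10 members in the 3 WT libraries (blue) and 3 Hemgn-/- libraries (orange), with bars for the group mean and whiskers for 1 SD; circles, squares and triangles are replicates 1, 2 and 3. Cd3d shows the widest gap, with WT libraries at 7.99 to 9.12 FPKM and Hemgn-/- libraries at 19.5 to 24.1 FPKM, while the Nkg7 libraries of both groups overlap.

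The members' levels spanned a wide range. Averaged over the 6 libraries, Nkg7 was the highest at 64.2 FPKM and Il2rb followed at 59.8 FPKM. Gzma (29.6 FPKM), Gzmb (26.02 FPKM), Prf1 (17.9 FPKM), Cd3d (15.3 FPKM) and Klrb1c (7.53 FPKM) came next. Ifng (3.05 FPKM), Cd3g (2.57 FPKM) and Cd3e (2.37 FPKM) were the lowest. FPKM values are per length of annotated exons, which was 1815 bases for Cd3d, 3269 for Cd3g and 4080 for Cd3e. In recovered fragments summed over the WT libraries, Cd3d had 1188, Cd3g 543 and Cd3e 651. The order above depends on the lengths used and does not rank transcript numbers. The ranges of neighbours in this order overlapped, except between Il2rb and Gzma and between Klrb1c and Ifng.

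Cd3d rose most of the 10 members, and the other 2 CD3 genes did not pass the test. Cd3d was at 8.33, 7.99 and 9.12 FPKM in WT replicates 1 to 3 and at 19.5, 22.6 and 24.1 FPKM in Hemgn-/- replicates 1 to 3. Every Hemgn-/- library was above every WT library by a wide margin, and the ratio of the group means was 2.60. The log2 fold change of Cd3d was 1.28 ± 0.11 (SE, n = 3 per group, limma adjusted p = 0.000409). The recovered fragments behind these values were 358, 371 and 459 in WT and 973, 1072 and 1266 in Hemgn-/- libraries. Cd3d was called under all 16 settings run, with a log2 fold change of 1.18 to 1.43.

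Cd3e, the epsilon chain, was at 2.69, 1.59 and 1.99 FPKM in WT and at 2.19, 2.85 and 2.93 FPKM in Hemgn-/- libraries. The groups overlapped, since WT replicate 1 was above Hemgn-/- replicate 1, and the log2 fold change of Cd3e was 0.25 ± 0.18 (SE, n = 3 per group, limma adjusted p = 0.471). Cd3g, the gamma chain, was at 2.12, 1.63 and 2.68 FPKM in WT and at 2.75, 3.11 and 3.10 FPKM in Hemgn-/- libraries. These groups did not overlap, but the margin was narrow, and the log2 fold change of Cd3g was 0.36 ± 0.16 (SE, n = 3 per group, limma adjusted p = 0.253).

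The balance of the 3 CD3 genes lay further toward Cd3d in every Hemgn-/- library. Cd3d made up 63.4%, 71.3% and 66.1% of their summed FPKM in WT replicates and 79.8%, 79.1% and 80.0% in Hemgn-/- replicates. The ratio of Cd3d to Cd3e was 3.10, 5.02 and 4.59 in WT and 8.93, 7.93 and 8.25 in Hemgn-/- libraries. The ratio of Cd3d to Cd3g was 3.93, 4.91 and 3.40 in WT and 7.10, 7.26 and 7.78 in Hemgn-/- libraries. Both ratios separated the groups without overlap (exact permutation test, two-sided p = 0.1 each, which is the smallest that 3 against 3 allows, and 0.2 adjusted over the 4 ratios computed). These ratios do not depend on the scaling between libraries, and they were chosen after the values of the CD3 genes had been seen. Like the shares, their size depends on the exon length used for each gene, which was the same in both groups.

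The CD3 genes lie side by side on GRCm38 in the GENCODE M21 annotation. Cd3g (chr9:44969572-44980431, minus strand) and Cd3d (chr9:44981786-44987339, plus strand) start back to back with 1354 bases between them, and both promoters shown above lie in that gap. Cd3e (chr9:44998740-45009627, minus strand) ends 11400 bases beyond the end of Cd3d. Neither Cd3d nor Cd3g overlapped another annotated gene, whereas Cd3e overlapped 2 predicted genes, Gm48719 on the opposite strand and Gm48720 on the same strand. Both were at or below 0.423 FPKM in every library. The strand setting of the counting is not given in the sources used here.

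The other chains of the T cell receptor complex moved less than Cd3d. Trac was at 76.5, 78.3 and 89.2 FPKM in WT and at 87.8, 86.5 and 87.6 FPKM in Hemgn-/- libraries, with a log2 fold change of 0.10 ± 0.077 (SE, n = 3 per group, limma adjusted p = 0.486). WT replicate 3 lay above all 3 Hemgn-/- libraries for this gene. Trbc1, a constant region of the beta chain, was higher in Hemgn-/- cells, at 43.9, 43.4 and 40.8 FPKM in WT and at 58.5, 64.3 and 56.9 FPKM in Hemgn-/- libraries (log2 fold change 0.48 ± 0.078, SE, n = 3 per group, limma adjusted p = 0.00961). Trbc1 was called under 15 of 16 settings. Its near copy Trbc2 was at 98.0, 95.9 and 97.4 FPKM in WT and at 96.5, 116 and 108 FPKM in Hemgn-/- libraries and was not called (log2 fold change 0.13 ± 0.080, SE, n = 3 per group, limma adjusted p = 0.390). Reads could be split unevenly between these near-identical genes, so the split between them is uncertain. Cd247, the zeta chain, had a log2 fold change of 0.15 ± 0.13 (SE, n = 3 per group, limma adjusted p = 0.540).

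**Figure D2:**
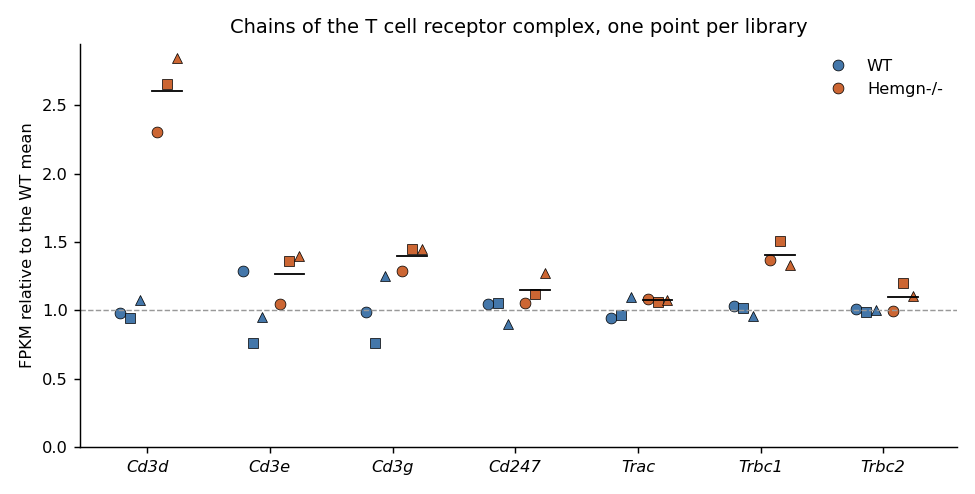
Levels of 7 chains of the T cell receptor complex in each library, as FPKM divided by the WT mean of the gene (dashed line at the WT mean). Blue points are WT and orange points Hemgn-/- libraries, circles, squares and triangles are replicates 1, 2 and 3, and short lines are Hemgn-/- means. The Cd3d mean lies at 2.60, and the Cd3e, Cd3g and Trbc1 means lie at 1.27, 1.39 and 1.40.

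Of 20 tested genes of T cell receptor chains and signalling, Trbc1 was the only one called higher and none was called lower (limma), and the median log2 fold change was 0.27. Without adjustment 6 were higher and none lower, and voom called 2 higher and none lower. Lck, the kinase that starts signalling from the CD3 chains, was at 20.998 to 23.6 FPKM in WT and at 26.2 to 27.7 FPKM in Hemgn-/- libraries and was not called (limma adjusted p = 0.101). With libraries rescaled to the same FPKM total it was called (limma adjusted p = 0.0356). Of 21 tested genes of T cell identity, limma called none in either direction, and the median was 0.078, below the 0.087 of all genes tested. Without adjustment 4 of these 21 were higher and 2 lower, and voom called 1 higher and 1 lower. Cd2, an adhesion receptor of T and NK cells, was at 57.9 to 71.6 FPKM in WT and at 73.7 to 85.6 FPKM in Hemgn-/- libraries (limma adjusted p = 0.180). The coreceptor gene Cd4 was at 2.53 to 3.52 FPKM in WT and at 2.37 to 5.11 FPKM in Hemgn-/- libraries, and Cd8a at 7.20 to 8.18 FPKM and at 6.58 to 8.18 FPKM, so both overlapped fully. The summed level of the T cell identity list was 213 to 231 FPKM in WT and 238 to 249 FPKM in Hemgn-/- libraries, and no gene of it was at 0 in any library. The part of T cell numbers in the Cd3d result was not tested.

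Klrb1c did not pass the test, although several other NK receptor genes did. It was at 6.24, 7.28 and 6.04 FPKM in WT and at 8.80, 9.30 and 7.49 FPKM in Hemgn-/- libraries. The groups were separated by a narrow margin, and the log2 fold change of Klrb1c was 0.34 ± 0.12 (SE, n = 3 per group, limma adjusted p = 0.151). Klrb1c (chr6:128778485-128789215, minus strand) overlaps another annotated gene on the same strand, Gm44511, which was not analysed here, so reads of the shared part are uncertain.

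Of 26 tested genes of NK identity and receptors, 5 were called higher and none lower by limma and by voom, with a median log2 fold change of 0.20. Without adjustment 8 of the 26 were higher and 2 lower. Ncr1, the gene of the activating receptor NKp46 and a defining marker of NK cells, was at 16.9, 17.3 and 16.5 FPKM in WT and at 28.5, 24.1 and 25.4 FPKM in Hemgn-/- libraries (log2 fold change 0.59 ± 0.091, SE, n = 3 per group, limma adjusted p = 0.00764). The groups were far apart, and Ncr1 was called under all 16 settings. Klrk1, the activating receptor NKG2D, was at 9.99, 7.11 and 7.56 FPKM in WT and at 12.0, 11.9 and 13.0 FPKM in Hemgn-/- libraries, and Tbx21, the transcription factor T-bet, at 8.44, 7.57 and 5.80 FPKM and at 11.2, 10.3 and 11.9 FPKM. Both were just past the threshold (limma adjusted p = 0.0475 for Klrk1 and 0.0491 for Tbx21), and they were called under only 5 and 4 of 16 settings. Klra3, an inhibitory Ly49 receptor gene, was at 2.49, 2.87 and 2.51 FPKM in WT and at 4.95, 9.32 and 7.91 FPKM in Hemgn-/- libraries (log2 fold change 1.18 ± 0.20, SE, n = 3 per group, limma adjusted p = 0.0109, and 0.0556 without Hemgn-/- replicate 3). The Ly49 genes are a family of related genes, and whether reads were split among them was not tested. The fifth was Klrd1, which encodes CD94 (log2 fold change 0.48, limma adjusted p = 0.0344), named here after its value was seen.

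Leaving out single libraries ended the Klrk1 and Tbx21 calls in most cases. Without WT replicate 1, 2 and 3 the adjusted p of Tbx21 was 0.0515, 0.0783 and 0.110, and without Hemgn-/- replicate 1, 2 and 3 it was 0.113, 0.0906 and 0.168. For Klrk1 it was 0.110 and 0.135 without WT replicates 2 and 3, and 0.0976, 0.106 and 0.164 without Hemgn-/- replicates 1, 2 and 3 (limma in each case). Eomes, a T-box factor of NK cells, did not pass the filter and was at 0.193 to 0.555 FPKM in WT and at 0.491 to 0.533 FPKM in Hemgn-/- libraries. The summed level of the NK list was 985 to 1013 FPKM in WT and 957 to 1154 FPKM in Hemgn-/- libraries, so the sums overlapped. That sum is carried by genes that myeloid cells also express, such as Fcgr3, Fcer1g and Ly6c2.

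Of the 4 members of the cytotoxic granule, Gzma and Prf1 rose and Gzmb and Nkg7 did not pass the test. Gzma, granzyme A, was at 24.3, 25.3 and 23.8 FPKM in WT and at 31.8, 37.9 and 34.4 FPKM in Hemgn-/- libraries. The WT libraries lay close together, and all Hemgn-/- libraries were above them. The log2 fold change of Gzma was 0.49 ± 0.089 (SE, n = 3 per group, limma adjusted p = 0.0155). Prf1, perforin, was at 10.4, 15.2 and 14.7 FPKM in WT and at 19.1, 21.9 and 25.8 FPKM in Hemgn-/- libraries. WT replicate 1 was low within its group, and the groups did not overlap. The log2 fold change of Prf1 was 0.69 ± 0.16 (SE, n = 3 per group, limma adjusted p = 0.0386).

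Both calls depended on single libraries. Leaving out WT replicate 1 or 3 moved the adjusted p of Gzma to 0.0581 or 0.0579, and leaving out Hemgn-/- replicate 2 or 3 moved it to 0.0523 or 0.0679. Prf1 had an adjusted p of 0.0854, 0.0697, 0.104 and 0.143 without the same libraries in turn, and of 0.0720 with median-ratio scaling (limma in each case). The direction stayed the same under every setting run, at 0.39 to 0.58 for Gzma and 0.53 to 0.81 for Prf1 on the log2 scale. Gzma was called under 10 of 16 settings and Prf1 under 8.

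Gzmb, granzyme B, was at 21.01, 27.6 and 25.0 FPKM in WT and at 28.2, 28.6 and 25.8 FPKM in Hemgn-/- libraries. WT replicate 2 lay above Hemgn-/- replicate 3, and the log2 fold change of Gzmb was 0.17 ± 0.11 (SE, n = 3 per group, limma adjusted p = 0.435). Basophils and mast cells can also express Gzmb. Of 9 tested basophil and mast cell markers, a list that holds Gzmb itself and Kit, none was called by limma or voom. Their median log2 fold change was 0.059, and 3 were higher without adjustment. The basophil protease gene Mcpt8 was at 89.6 to 120 FPKM in WT and at 97.5 to 105 FPKM in Hemgn-/- libraries. The summed level of that list was 505 to 553 FPKM in WT and 533 to 564 FPKM in Hemgn-/- libraries, with Tpsb2 at 0 in at least 1 library. Nkg7, the highest member, was at 63.3, 60.4 and 70.9 FPKM in WT and at 51.7, 74.7 and 64.1 FPKM in Hemgn-/- libraries. Hemgn-/- replicates 1 and 2 were the lowest and the highest of all 6 libraries. The log2 fold change of Nkg7 was -0.043 ± 0.13 (SE, n = 3 per group, limma adjusted p = 0.883), and its sign turned with the libraries rescaled to the same FPKM total (0.045), and when WT replicate 3 (0.022) or Hemgn-/- replicate 1 (0.095) was left out.

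Of 16 further granule genes tested, 2 were called higher and none lower by limma and by voom, with a median log2 fold change of 0.072. Without adjustment 3 of them were higher and 1 lower. Ctsc, the cathepsin that activates granzymes and is also made by myeloid cells, was at 46.5, 49.4 and 49.4 FPKM in WT and at 81.6, 72.4 and 75.8 FPKM in Hemgn-/- libraries (log2 fold change 0.65 ± 0.075, SE, n = 3 per group, limma adjusted p = 0.00222). Ctsw, a cathepsin of cytotoxic lymphocytes, was at 55.9, 60.2 and 52.5 FPKM in WT and at 71.9, 72.4 and 77.9 FPKM in Hemgn-/- libraries (log2 fold change 0.39 ± 0.078, SE, n = 3 per group, limma adjusted p = 0.0217). Ctsc was called under all 16 settings and Ctsw under 9. The adjusted p of Ctsw was 0.0748 and 0.0728 without WT replicates 1 and 3, and 0.0565 and 0.104 without Hemgn-/- replicates 2 and 3. The list's summed level was 749 to 802 FPKM in WT and 771 to 825 FPKM in Hemgn-/- libraries.

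**Figure D3:**
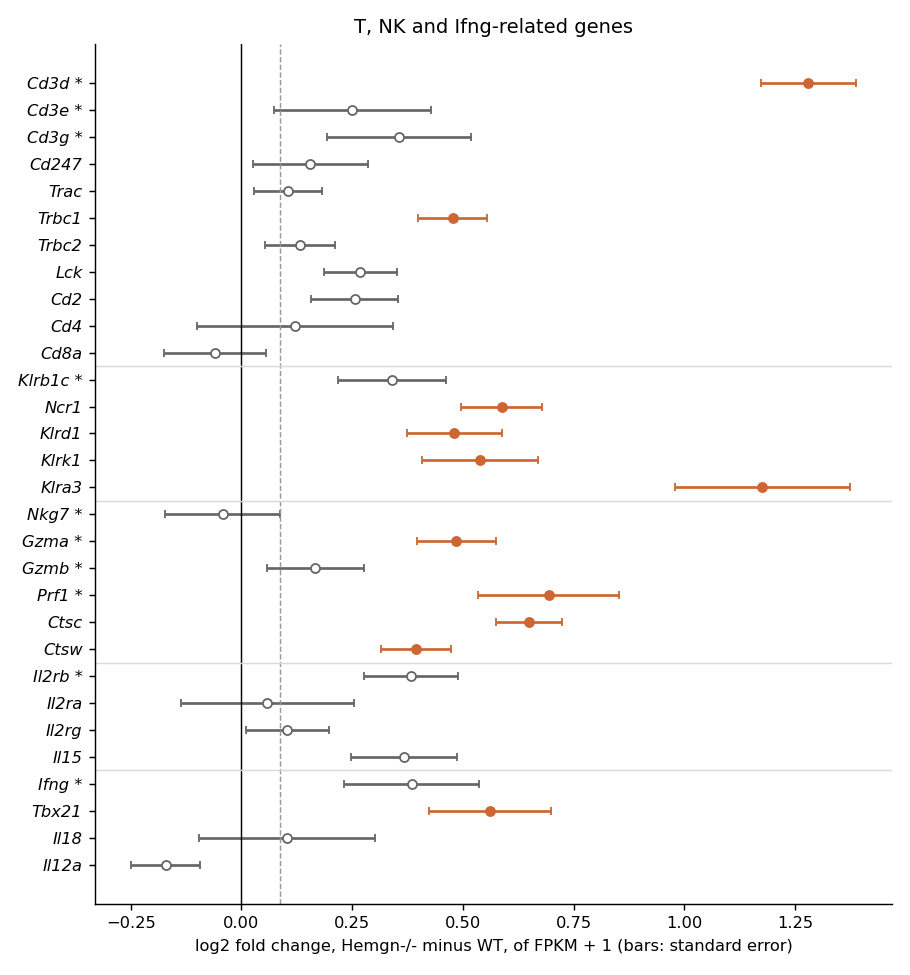
Log2 fold change of FPKM + 1, Hemgn-/- minus WT, with bars for 1 SE, for the 10 members (starred) and further T, NK, granule, receptor and IFN-γ inducer genes, in 5 groups. Filled orange points have a limma adjusted p under 0.05, open points do not, and the dashed line marks the median of all genes tested at 0.087. Cd3d at 1.28 and Klra3 at 1.18 lie farthest to the right.

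Il2rb was high in all libraries and fell short of the threshold. It was at 53.6, 55.2 and 46.5 FPKM in WT and at 59.0, 72.0 and 72.8 FPKM in Hemgn-/- libraries. All Hemgn-/- libraries were above all WT libraries, with Hemgn-/- replicate 1 closest to them. The log2 fold change of Il2rb was 0.38 ± 0.11 (SE, n = 3 per group, limma adjusted p = 0.0725). It was called under 3 of 16 settings, with the same FPKM total (adjusted p = 0.0252), with voom on the recovered fragments (0.0368) and without Hemgn-/- replicate 1 (0.0339). Its values did not come out as whole fragments with the exon length used here, so no fragment counts are given for it. The voom call of Il2rb rests on those same values.

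Of 10 tested genes of the IL-2 and IL-15 receptor pathway besides Il2rb, limma called none and voom 1, all 10 were positive, and the median log2 fold change was 0.27. Without adjustment 6 of the 10 were higher. Il2rg, the chain shared by several cytokine receptors, was at 35.9 to 43.6 FPKM in WT and at 40.0 to 43.8 FPKM in Hemgn-/- libraries. Il2ra, which gives the IL-2 receptor its high affinity, was at 4.54 to 6.36 FPKM in WT and at 4.02 to 7.12 FPKM in Hemgn-/- libraries. Both genes overlapped between the groups. Il15, the ligand, was at 8.33 to 9.61 FPKM in WT and at 10.8 to 13.9 FPKM in Hemgn-/- libraries (log2 fold change 0.37 ± 0.12, SE, n = 3 per group, limma adjusted p = 0.119). Il2 was listed at 0 in 5 libraries, among them the 3 WT libraries, and had 6 fragments in Hemgn-/- replicate 3.

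Ifng transcripts were present in every library at a low level, and the difference between the groups did not pass the test. Ifng was at 3.10, 2.47 and 2.01 FPKM in WT and at 3.71, 3.30 and 3.69 FPKM in Hemgn-/- libraries. These values came from 95, 82 and 72 fragments in WT and 132, 112 and 138 in Hemgn-/- libraries. The lowest Hemgn-/- library was just above the highest WT library, and the ratio of the group means was 1.41. The log2 fold change of Ifng was 0.38 ± 0.15 (SE, n = 3 per group, limma adjusted p = 0.193). It stayed positive, at 0.27 to 0.54, and was called under none of the 16 settings, with adjusted p from 0.111 to 0.397. Ifng (chr10:118441046-118445892, plus strand) overlaps Gm49751 on the same strand, which was at 0.792, 0.976 and 0.570 FPKM in WT and at 1.69, 0.912 and 0.242 FPKM in Hemgn-/- libraries, so reads of the shared part are uncertain.

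The ratios of Ifng to a T cell receptor gene and to an NK gene overlapped between the groups. The ratio of Ifng to the T cell gene Trac was 0.0405, 0.0316 and 0.0225 in WT and 0.0423, 0.0382 and 0.0421 in Hemgn-/- libraries (exact permutation test, two-sided p = 0.2, and 0.267 adjusted over the 4 ratios). The ratio of Ifng to the NK gene Ncr1 was 0.183, 0.143 and 0.121 in WT and 0.130, 0.137 and 0.145 in Hemgn-/- libraries (exact permutation test, two-sided p = 0.8, and 0.8 adjusted). The Hemgn-/- libraries lay within the WT range for the second ratio. Trac stood far above Cd3e and Cd3g in every library, and whether it follows the number of T cells was not tested. Which cells the Ifng transcripts came from was not tested.

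Of 18 tested genes in the list of inducers of Ifng, which holds Ifng itself, Tbx21 was the only one called higher and none was called lower, and the median log2 fold change was -0.031. Without adjustment 3 were higher and 1 lower, and voom called 2 higher and none lower. Il12a, a subunit of IL-12, was at 33.0, 34.0 and 36.4 FPKM in WT and at 31.0, 29.4 and 31.1 FPKM in Hemgn-/- libraries, so it lay lower without overlap and was not called (limma adjusted p = 0.253). Its partner Il12b was likewise listed at 0 in 5 libraries and had 12 fragments in Hemgn-/- replicate 2. Il18, a cytokine that acts with IL-12 on NK cells, was at 2.55 to 4.26 FPKM in WT and at 3.26 to 5.08 FPKM in Hemgn-/- libraries. Its groups overlapped (limma adjusted p = 0.804).

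RNA of Ifngr2 and of 2 regulators of the IFN-γ signal was higher in Hemgn-/- cells at 6 h. The study measured both receptor proteins by flow cytometry on donor cells at a later time and reported that Hemgn loss did not affect them. RNA and protein at different times are unlike measures. Of 11 tested genes of the IFN-γ receptor and its signal, 3 were called higher and none lower (voom 5 and none), with a median log2 fold change of 0.25. Without adjustment 8 were higher and none lower. Ifngr1, the ligand-binding chain, was at 173 to 178 FPKM in WT and at 193 to 228 FPKM in Hemgn-/- libraries. It was not called under the reported setting (limma adjusted p = 0.0757). It was called under 3 of 16 settings, with the same FPKM total (limma adjusted p = 0.0329), with voom (0.0448) and without Hemgn-/- replicate 2 (limma, 0.0482). Ifngr2, the second chain, was at 33.2, 29.6 and 30.9 FPKM in WT and at 40.3, 43.7 and 45.1 FPKM in Hemgn-/- libraries (log2 fold change 0.45 ± 0.083, SE, n = 3 per group, limma adjusted p = 0.0158). Its adjusted p was 0.0559 without WT replicate 3, and 0.0567 and 0.0825 without Hemgn-/- replicates 2 and 3. Socs3, an inhibitor of cytokine signalling, and Ptpn6, a phosphatase, were the others called (log2 fold changes 0.83 and 0.39, limma adjusted p = 0.000663 and 0.00737).

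Of 24 tested IFN-γ response genes, 14 were called higher and none lower (voom 16 and none), all 24 were positive, and the median log2 fold change was 0.53. The 4 with the largest fold changes were Cxcl10 (1.32, limma adjusted p = 0.00158) and Cxcl9 (1.16, 0.0176), which attract T and NK cells, Gbp2 (1.10, 0.000263), a guanylate-binding protein, and Ciita (0.88, 0.00289), the activator of MHC class II genes. Cxcl9 was at 1.05 to 1.52 FPKM in WT and at 2.98 to 5.90 FPKM in Hemgn-/- libraries, and its adjusted p was 0.0604 without WT replicate 1 and 0.0554 without Hemgn-/- replicate 3. The list was chosen with earlier results of these data known, so its direction is not independent evidence. On the same scale the Ifng difference was 0.38, but adding 1 FPKM understates changes of a gene as low as Ifng. With a pseudocount of 0.1 Ifng was at 0.50. Cxcl10, Cxcl9, Gbp2 and Ciita were then at 1.44, 1.61, 1.12 and 0.95.

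**Figure D4:**
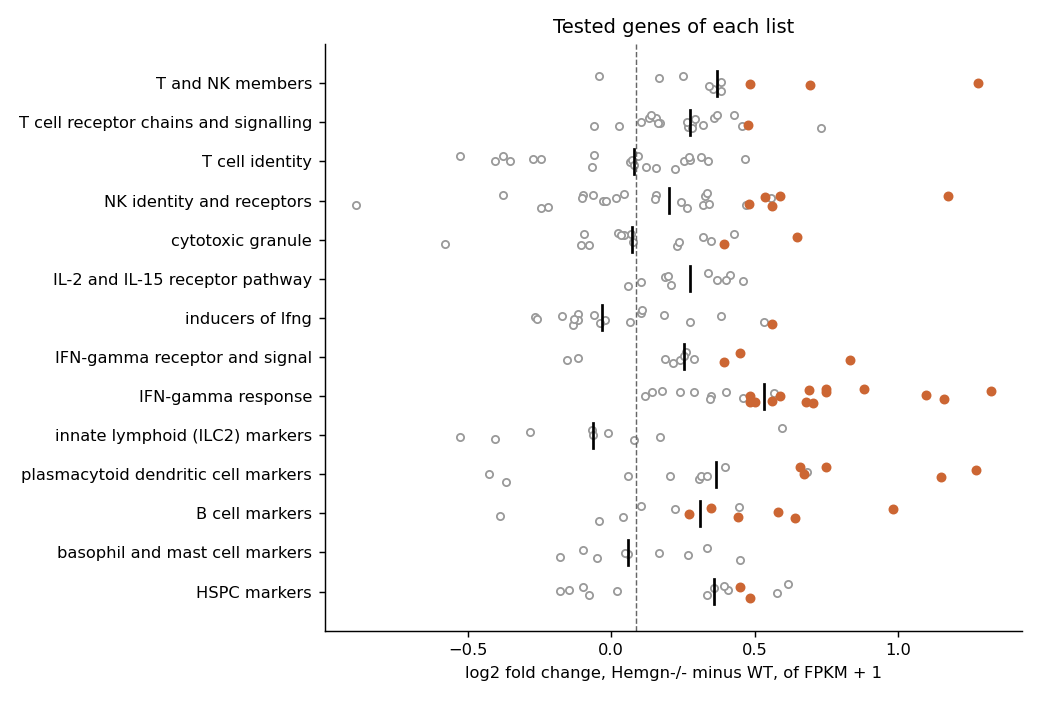
Log2 fold change of FPKM + 1, Hemgn-/- minus WT, of every tested gene of the 10 members and 13 other lists, 1 point per gene. Filled orange points have a limma adjusted p under 0.05, short black lines are list medians, and the dashed line is the median of all genes tested. The members' median is 0.37, the T cell identity median 0.078 and the IFN-γ response median 0.53.

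Markers of other cells also differed between the groups, and their part in the results above was not tested. Of 12 B cell markers, 6 were called higher and none lower, with Fcer2a (log2 fold change 0.98), Ms4a1 (0.64) and Bank1 (0.58) the 3 largest. Their summed level was 1312 to 1376 FPKM in WT and 1637 to 1807 FPKM in Hemgn-/- libraries. Of 14 tested plasmacytoid dendritic cell markers, 5 were called higher and none lower, led by Klk1 (1.27), Siglech (1.15), Irf8 (0.75) and Spib (0.67), with a summed level of 397 to 410 FPKM in WT and 497 to 566 FPKM in Hemgn-/- libraries. Plasmacytoid dendritic cells and B cells share Spib and Irf8. Irf8 is also on the list of IFN-γ response genes, so its call is counted in both lists. Without adjustment no B cell marker and 2 plasmacytoid dendritic cell markers were lower, and voom called none lower in either list. Of 13 tested HSPC markers, Cd34 (0.45, limma adjusted p = 0.0427) and Cd48 (0.48, 0.0332) were called higher and none lower, with a summed level of 49.6 to 54.6 FPKM in WT and 60.8 to 69.1 FPKM in Hemgn-/- libraries. Cd34 and Cd48 were called under 5 and 4 of 16 settings. Without adjustment 4 HSPC markers were higher and none lower. Of 9 tested markers of group 2 innate lymphoid cells, lineage-negative lymphocytes of the marrow, limma called none, 1 was higher and 1 lower without adjustment, and voom called 1 in each direction. Their defining receptor gene Il1rl1 was at 1.65 to 2.51 FPKM in WT and at 2.09 to 2.69 FPKM in Hemgn-/- libraries, and the sum of that list was 39.8 to 45.8 FPKM and 34.1 to 40.2 FPKM. Much of that sum was Il7r, at 20.9 to 27.2 FPKM in WT and 17.8 to 19.1 FPKM in Hemgn-/- libraries, a gene also on the T cell identity list.

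Cd34 kept its call under no setting that left out a library, with adjusted p of 0.0666, 0.0970 and 0.10002 without WT replicates 1, 2 and 3 and of 0.0965, 0.0891 and 0.153 without Hemgn-/- replicates 1, 2 and 3. The same holds for Cd48, at 0.0509, 0.0678 and 0.10002 and at 0.0665, 0.0939 and 0.124 in that order. Klk1 had adjusted p of 0.101 and 0.108 without WT replicates 1 and 3 and of 0.103 and 0.121 without Hemgn-/- replicates 1 and 2. Fcer2a, Ms4a1, Bank1, Siglech, Irf8 and Spib were called under all 16 settings.

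The genes most like each called member across the 6 libraries were of varied kinds. By Pearson's r of log2(FPKM + 1) over the 6 libraries, H2-T23 (r = 0.998), Ms4a1 (0.997) and Utp15 (0.997) were closest to Cd3d. Ccl6 (0.995), Gm37168 (0.993) and Dync1li1 (0.993) were closest to Gzma, and Tlr4 (0.997), Dhrs7b (0.987) and Glmn (0.984) to Prf1. Nr2c1 (0.993), Pml (0.991) and Slc25a44 (0.989) were closest to Ifng. These are the 3 highest of 13739 genes for each member, the libraries share 1 split by genotype, and the values are given as a description.

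**Figure D5:**
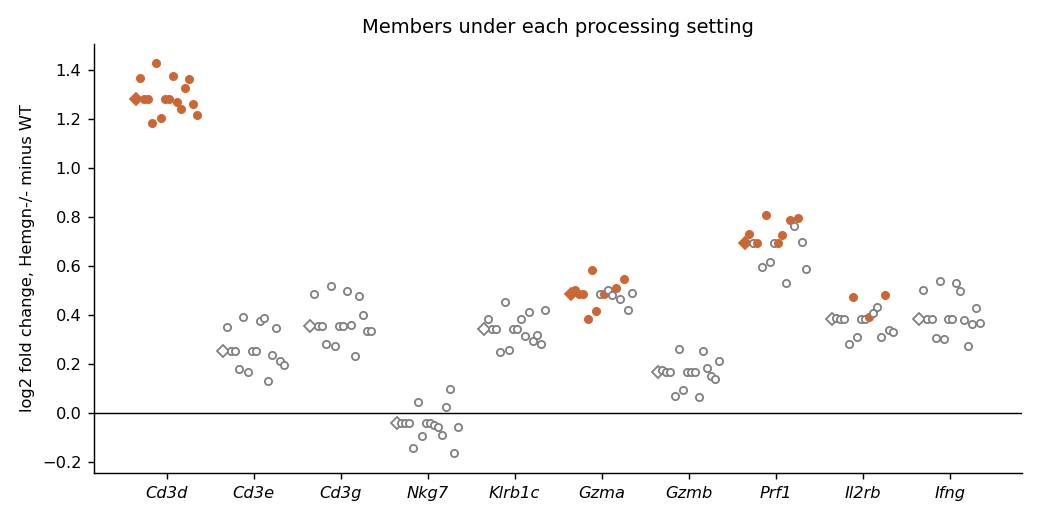
Log2 fold change of each member, Hemgn-/- minus WT, under the reported setting (diamonds) and 15 alternatives (circles). Filled orange symbols have an adjusted p under 0.05 under that setting. Cd3d is filled in all 16, Gzma in 10, Prf1 in 8 and Il2rb in 3, and the other 6 members in none.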

How the data were processed

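The table deposited by the authors holds FPKM, with a column for each of 3 WT and 3 Hemgn-/- libraries, grouped here by the labelled genotype; no column was left unmapped (0). The submitters' notes name Bowtie2 2.2.3, HISAT2 2.1.0, TopHat2, HTSeq 0.6.0 and GRCm38. Of 24965 Ensembl identifiers, 24921 matched GENCODE M21. Depth was recovered from FPKM steps and exon lengths: of 13472 genes with at most 100 fragments, 95.2% came out whole in all libraries (within 0.01 fragments). Fragments of amplified cDNA are not independent molecules. Replicates differed by more than sampling noise (chi-square per gene 17.5 to 35.2).

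Genes past 1 FPKM in any library were tested with limma 3.58.1 in R 4.3.3 (lmFit, eBayes with a trend, two-sided) on log2(FPKM + 1), which understates changes of low genes, and p-values were Benjamini-Hochberg adjusted over 13739 genes. The script was tested on simulated data. Python 3.11.15, numpy 2.4.6, pandas 2.3.3, scipy 1.17.1 and matplotlib 3.10.9 served for the rest.

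The members and lists were chosen with earlier results of these data known. Genes named were the members, Hemgn, up to 4 called genes per list and direction, a set of defining markers, and the 3 genes most like each called member and Ifng. Ly6a, Fcgr3, Fcer1g and Ly6c2, the overlapping predicted genes, Klrd1 and the genes of the closing section were named after their values were seen. The 15 alternatives changed the pseudocount, filter, scaling, trend, replicate block or count model (voom), or left out 1 library. Some genes of the lists are not reported here by name.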

Additional observations from a re-analysis of the deposited data

How the results depend on the processing

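Of the results on single genes under the alternatives, 657 kept their direction and their side of the threshold, 87 lost their call, 8 gained one and 13 turned sign. The cause was not tested. The count of genes called, 887, was 466 with no filter, where 24965 genes were tested, and 390 without the trend. It was 373 to 688 when 1 library was left out. WT replicate 1 (470) and 3 (494) and Hemgn-/- replicate 2 (525) and 3 (373) moved it by over 1.5 times. Of the 10 members, 1 was called without the trend (Cd3d) and 1 to 4 when 1 library was left out, with 1 when it was WT replicate 1 or 3 or Hemgn-/- replicate 2 or 3. Called genes of the other lists, 37 in all, were 60 with the same FPKM total, 20 without the trend and 21 to 33 when 1 library was left out, where WT replicate 1 (24) and Hemgn-/- replicate 3 (21) moved the count most.

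The 13 turns of sign were all in genes that were not called. Nkg7 (-0.043) had log2 fold changes of 0.045 with the same FPKM total and of -0.17 to 0.095 when 1 library was left out, positive for WT replicate 3 (0.022) and Hemgn-/- replicate 1 (0.095). Cd4 (0.12) ranged from -0.098 (Hemgn-/- replicate 2 left out) to 0.33. Cd8a (-0.060) was at 0.020 with the same FPKM total and ranged from -0.13 to 0.013 (Hemgn-/- replicate 2 left out). Il2ra (0.058) was at -0.030 with median-ratio scaling and -0.024 with quantile normalization, and ranged from -0.080 to 0.27, negative for WT replicate 2 (-0.051) and Hemgn-/- replicates 2 (-0.014) and 3 (-0.080). Il18 (0.10) ranged from -0.074 to 0.21, negative for WT replicate 3 (-0.074) and Hemgn-/- replicate 2 (-0.055).

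The replicate numbers did not pair the libraries, with correlations of deviations of -0.043, -0.0094 and 0.011 for same-numbered libraries. With the replicate number as a block, 636 genes, 3 members and 27 genes of the other lists were called. A low level limits Ifng, Cd3e and Cd3g, with 72 to 345 fragments per library.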

Other observations

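The Ly49 receptor genes of NK cells, which lie together on chromosome 6, did not move one way. Klra3 was at 2.49, 2.87 and 2.51 FPKM in WT and at 4.95, 9.32 and 7.91 FPKM in Hemgn-/- libraries, and was called higher. Klra4 was at 10.05, 13.2 and 6.46 FPKM in WT and at 3.13, 6.35 and 5.06 FPKM in Hemgn-/- libraries. It lay lower in all 3 and was not called (log2 fold change -0.89 ± 0.27, SE, n = 3 per group, limma adjusted p = 0.0937). Klra7 and Klra8 also lay lower without overlap and were not called (log2 fold changes -0.22 and -0.38, limma adjusted p = 0.285 and 0.141). The 4 genes belong to the same family, and how reads were shared among them was not tested.

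On the T cell identity list, Il7r and Rag1 lay lower in Hemgn-/- libraries without overlap, while neither was called (log2 fold changes -0.40 and -0.38, limma adjusted p = 0.0706 and 0.209). Il7r is also on the list of innate lymphoid cell markers, and which cells the Il7r and Rag1 transcripts came from was not tested. Among gamma-delta receptor genes, Tcrg-C2 was at 4.11, 6.11 and 2.96 FPKM in WT and at 9.33, 6.65 and 7.38 FPKM in Hemgn-/- libraries and was not called (log2 fold change 0.73 ± 0.21, SE, n = 3 per group, limma adjusted p = 0.0869). These genes were named after their values were seen.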
